A study of Mus musculus with 35 samples.

Results

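The BCL2 family sets whether a cell opens its mitochondria and dies. The 10 members followed here were the anti-apoptotic genes Bcl2, Bcl2l1 (BCL-XL) and Mcl1, the pore-forming effectors Bax and Bak1, and the BH3-only genes Bcl2l11 (BIM), Bmf, Bbc3 (PUMA), Bid and Pmaip1 (NOXA). They were taken by symbol from a table of read counts for 41096 genes, in which each of the 10 had 1 row. In the table's strain annotation Bcl2 lies on chromosome 1 (112847969 to 113035252, minus strand), Bcl2l1 on chromosome 2 (161925370 to 161980067, minus strand) and Mcl1 on chromosome 3 (99975787 to 99980175, plus strand). Bax and Bbc3 lie on chromosome 7, Bmf and Bcl2l11 on 2, Bid on 6, Bak1 on 17 and Pmaip1 on 18. The table covered 35 RNA-seq libraries of flow-sorted mouse thymocytes in 7 groups of 5. CD4-CD8- double negative (DN) cells and CD4+CD8+ double positive (DP) cells came from wild-type mice of 10 weeks (young) and 60 weeks (aged). DN and DP cells also came from Mettl3flox/wt; Cd4Cre mice of 10 weeks, the group called WT, and DP cells from Mettl3flox/flox; Cd4Cre mice of 10 weeks, the group called KO. The WT controls thus carried Cd4Cre and 1 floxed allele, whereas the young and aged mice carried neither, and KO DN cells were not analysed here. Cd4Cre drives recombination from Cd4 regulatory sequence, so the allele is recombined in cells that have used the Cd4 promoter. Mettl3 encodes the methyltransferase that writes N6-methyladenosine on RNA.

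Anti-apoptotic proteins hold BAX and BAK in check at the outer mitochondrial membrane. BH3-only proteins are made or activated under stress or receptor signalling; they occupy the anti-apoptotic proteins and free or activate the effectors, after which cytochrome c release starts the caspase cascade. In the mouse thymus, early DN cells receive IL-7 receptor signals and use BCL2, whereas DP cells are known for their dependence on BCL-XL. BIM is the main BH3-only protein in the deletion of self-reactive thymocytes, and MCL1 is needed at both stages.

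The promoters of Bcl2 and Bcl2l1 are shown because these genes moved in opposite directions between DN and DP cells. The RefSeq sequences (GRCm38.p6) run 5′ to 3′ from 250 bases before to 50 bases after an annotated start. Capitals mark AGGTCA, the core element read by many nuclear receptors, or GGGCGG, the GC box read by Sp1 family proteins, on either strand (TGACCT and CCGCCC are their reverse complements).
Bcl2, chr1:106714241-106714540, minus strand: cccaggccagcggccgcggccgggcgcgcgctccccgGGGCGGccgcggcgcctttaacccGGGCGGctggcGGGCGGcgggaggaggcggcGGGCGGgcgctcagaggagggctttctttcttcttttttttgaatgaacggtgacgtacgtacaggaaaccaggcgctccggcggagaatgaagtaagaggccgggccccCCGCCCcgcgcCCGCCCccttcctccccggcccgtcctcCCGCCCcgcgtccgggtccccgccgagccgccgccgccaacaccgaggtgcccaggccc
Bcl2l1 start 1, chr2:152828440-152828739, minus strand: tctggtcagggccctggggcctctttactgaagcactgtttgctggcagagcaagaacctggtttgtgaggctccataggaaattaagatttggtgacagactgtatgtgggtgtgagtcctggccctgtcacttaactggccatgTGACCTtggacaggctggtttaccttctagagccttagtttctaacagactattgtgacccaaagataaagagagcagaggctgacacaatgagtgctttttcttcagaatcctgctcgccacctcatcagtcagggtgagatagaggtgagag
Bcl2l1 start 2, chr2:152830668-152830967, minus strand: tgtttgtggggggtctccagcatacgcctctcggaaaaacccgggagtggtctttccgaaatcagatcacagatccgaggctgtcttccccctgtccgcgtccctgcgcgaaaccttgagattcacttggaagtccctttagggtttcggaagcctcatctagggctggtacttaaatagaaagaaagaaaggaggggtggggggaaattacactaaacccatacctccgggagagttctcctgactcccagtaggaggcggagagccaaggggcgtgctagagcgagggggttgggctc
Bcl2l1 start 3, chr2:152831679-152831978, minus strand: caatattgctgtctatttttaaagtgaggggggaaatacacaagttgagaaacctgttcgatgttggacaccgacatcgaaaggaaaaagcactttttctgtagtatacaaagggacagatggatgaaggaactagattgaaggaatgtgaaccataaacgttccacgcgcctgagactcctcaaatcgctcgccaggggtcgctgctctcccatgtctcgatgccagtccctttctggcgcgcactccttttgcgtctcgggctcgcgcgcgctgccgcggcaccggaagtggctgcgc

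The Bcl2 promoter was 76.0% G and C and held 7 GGGCGG matches and 0 AGGTCA matches. The Bcl2l1 promoters were 49.3%, 55.7% and 52.3% G and C, held 0 GGGCGG matches, and start 1 held 1 AGGTCA match. Of 32851 mouse promoters of the same length, 35.7% held GGGCGG and 16.3% held AGGTCA on either strand, and the median was 52.7% G and C. A match is a description of the letters, and gene counts do not show which start was used.

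Total counts per library ran from 12391908 to 18820157. Levels below are CPM, counts scaled to library size with the trimmed mean of M-values (TMM) over all 35 libraries, and mean ± SD is over 5 libraries. The labels do not say whether the libraries of a group came from separate mice, so p-values measure the spread between these libraries. The summed level of DP markers was 9651 to 19429 CPM in DP libraries and 316 to 2697 CPM in DN libraries. Of the 8 DP markers in the table, 0 were at 0 in a DN library. Much of the DN sum was Rag1, with medians of 1307, 784 and 823 CPM in young, aged and WT DN libraries. Cd8b1 had medians of 51.7, 35.6 and 85.2 CPM there. Aged DN library 5 and WT DN library 2 stood apart, with summed B cell markers of 14866 and 5886 CPM against group medians of 1217 and 892 CPM. Aged DN library 1 carried 7921 CPM of gamma delta and innate-like T cell markers against a group median of 625 CPM. Aged DP library 5 carried 2384 CPM of B cell markers against a group median of 908 CPM, and KO DP library 2 had a count in 12306 genes, the fewest of the 35. Aged DP library 1 was set aside together with these in the alternatives that leave such libraries out. Mettl3 itself was at 50.6 ± 4.05 CPM in WT DP and 52.2 ± 5.43 CPM in KO DP (log2 difference 0.05, adjusted p = 0.862, edgeR's quasi-likelihood test). A count over the whole gene does not measure loss of floxed exons, so it does not check the KO label.

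**Figure D1:**
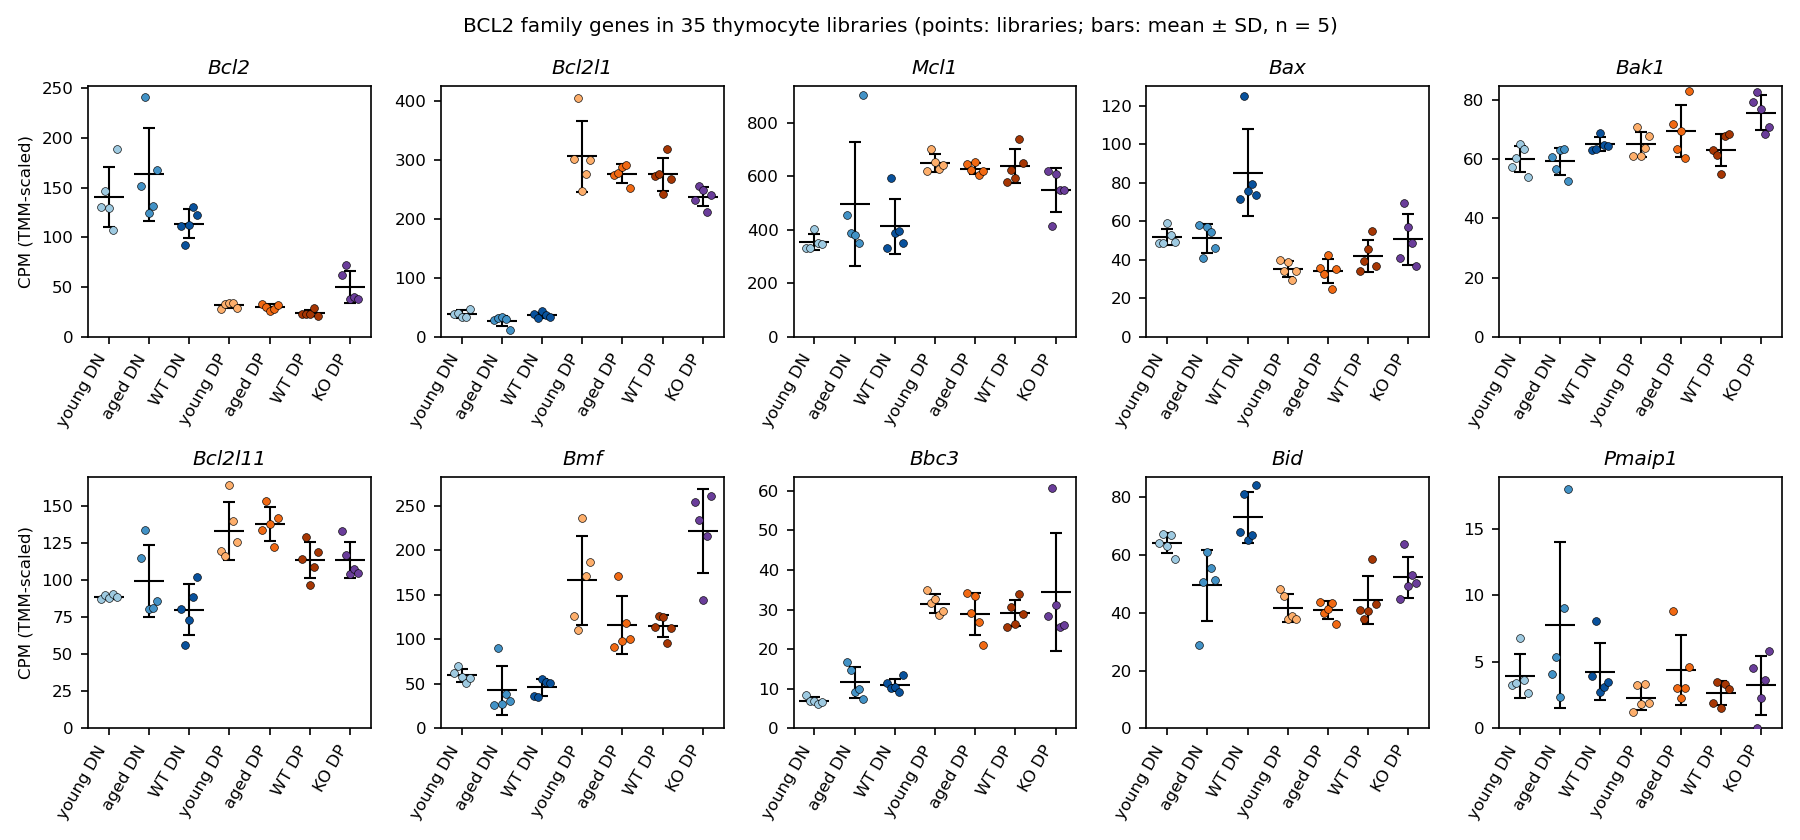
Level of each BCL2 family gene (y axis, TMM-scaled CPM, linear from 0, with its own scale in each panel) in the 7 groups. Points are libraries and bars are mean ± SD, n = 5. Bcl2 was lowest in the 3 control DP groups and Bcl2l1, Bbc3 and Bmf were lower in DN than in DP cells, with 1 Bmf value of 90.9 CPM and 1 Mcl1 value of 906 CPM standing above the other aged DN libraries.

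Per length, Mcl1 was the most abundant member in all 7 groups, with group means from 103.6 to 190.1 CPM per kilobase. The gene placed next to it depended on stage. In the 3 control DP groups it was Bcl2l1, at 60.1 to 66.8 CPM per kilobase, and in the 3 DN groups it was Bax, while Bcl2l1 stood 8th of 10 there at 5.96 to 8.50 CPM per kilobase. Bcl2 reached 12.5 to 17.9 CPM per kilobase in DN groups and 2.66 to 3.49 in control DP groups, where it stood 9th. Pmaip1 was last in every group, at 0.87 to 2.93 CPM per kilobase. In KO DP cells Bax had a mean of 58.3 and Bcl2l1 of 51.9 CPM per kilobase.

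The first question was how the family changes from DN to DP cells, asked separately in young, aged and WT mice. Bcl2 was lower and Bcl2l1 higher in DP cells in all 3 sets, and the BH3-only genes Bbc3, Bmf and Bcl2l11 were higher in all 3. Bax was lower in all 3 and Bak1 did not pass the test in any. Many genes differed between these sorted populations. In young mice 9 of 10 members passed an adjusted p of 0.05 (5 higher and 4 lower in DP), against 70.4% of the 13772 genes tested, in aged mice 6 of 10 (4 higher, 2 lower) against 43.2% of 13596, and in WT mice 8 of 10 (5 higher, 3 lower) against 63.9% of 13490. By direction, the shares of all genes called were 33.9% higher and 36.5% lower in young, 18.6% and 24.6% in aged, and 30.2% and 33.7% in WT mice. Against these backgrounds the number of members called is not a result about the family. The members' median log2 change was 0.37, 0.28 and 0.26 in young, aged and WT mice, beside -0.01, -0.07 and -0.02 over all genes tested. In these bulk samples fewer cells of a type and less RNA per cell cannot be told apart.

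Many markers of other cell types were lower in DP than in DN cells in all 3 sets. In young, aged and WT mice 5 of 5, 4 of 4 and 5 of 5 tested granulocyte markers were called lower, as were 7 of 7, 7 of 7 and 5 of 5 gamma delta and innate-like T cell markers, and 9, 6 and 9 of 10 B cell markers. Of the NK cell markers, 5 of 6, 7 of 7 and 7 of 7 were called lower, and of the dendritic cell markers 5 of 6, 4 of 5 and 4 of 5. In young mice summed granulocyte markers were 256 to 979.6 CPM in DN and 0.62 to 3.06 CPM in DP libraries, while summed B cell markers were 411 to 894 and 466 to 649 CPM. Macrophage markers were called lower as 5 of 6, 2 of 5 and 2 of 2, plasma cell markers as 4, 3 and 4 of 6, and single positive markers as 6, 5 and 6 of 8. Called higher were 1 B cell, 1 plasma cell and 1 single positive marker in young mice, and 1 single positive marker in WT mice. Of 3 tested stroma markers, 1 was higher and 1 lower in young and in WT mice, and 1 was lower in aged mice. Erythroid markers had 0 called, with at most 1 tested. The part of these cells in the members' stage differences was not tested.

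Bcl2, the anti-apoptotic gene that IL-7 receptor signals maintain, was several-fold lower in DP cells. In young mice it was at 131, 146, 129.8, 108 and 189 CPM in the DN libraries and at 28.4, 33.6, 34.2, 34.3 and 28.7 CPM in the DP libraries. Aged DN libraries had 152, 241, 125, 132 and 168 CPM and aged DP libraries 33.5, 30.0, 26.5, 28 and 31.9 CPM. WT DN libraries had 111, 92.6, 113, 130.3 and 123 CPM and WT DP libraries 23.5, 23.5, 23.6, 29.4 and 21.6 CPM. Every DN library lay above every DP library, and the widest spread was among aged DN libraries. The log2 change was -2.12 (SE 0.13, adjusted p = 1.16e-09) in young, -2.46 (SE 0.19, adjusted p = 1.42e-05) in aged and -2.20 (SE 0.11, adjusted p = 3.08e-09) in WT mice, edgeR's quasi-likelihood test.

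Bcl2l1, which encodes BCL-XL, moved the other way and by more. Young DN libraries held 38.8, 40.4, 34.2, 33.3 and 48.1 CPM, and young DP libraries 301, 406, 248, 276 and 301 CPM. Aged DN libraries held 28.9, 31.5, 33.5, 30.2 and 12.4 CPM, and aged DP libraries 274, 278, 289, 292 and 253 CPM. WT DN libraries held 38.4, 32.8, 43.6, 37.3 and 33.7 CPM, and WT DP libraries 273, 276, 242, 319 and 268 CPM. The stages were fully separated, and the lowest value of all, in aged DN library 5, was in the library with the highest B cell marker sum. The log2 change was 2.99 (SE 0.13, adjusted p = 4.71e-11) in young mice, a 7.96-fold difference. It was 3.34 (SE 0.24, adjusted p = 1.06e-05) in aged and 2.91 (SE 0.10, adjusted p = 2.71e-10) in WT mice.

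Mcl1, a short-lived anti-apoptotic protein's gene, was higher in DP cells in young mice (354 ± 29.7 against 649.8 ± 33.1 CPM, log2 change 0.89, SE 0.07, adjusted p = 1.84e-08, edgeR's quasi-likelihood test) and in WT mice (414 ± 104 against 638 ± 63.7 CPM, 0.65, SE 0.15, adjusted p = 0.002). In aged mice the DN libraries held 457, 390.3, 380.3, 350.3 and 906 CPM and the DP libraries 647, 623, 652, 605 and 619 CPM. Aged DN library 5 lay above all aged DP libraries and the other aged DN libraries lay below them. The aged log2 change of 0.33 (SE 0.25, adjusted p = 0.319) did not pass the test with it, and was 0.67 (adjusted p = 0.000283) without it. Its B cell marker sum is given above, and the part of those cells in its Mcl1 level was not tested.

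The composition of anti-apoptotic RNA followed from these levels. Of the summed CPM per kilobase of Mcl1, Bcl2l1 and Bcl2, Bcl2 made up 12.1 ± 2.37% in young DN, 11.4 ± 4.15% in aged DN and 9.17 ± 2.25% in WT DN libraries. It made up 1.35 ± 0.15%, 1.33 ± 0.14% and 1.07 ± 0.08% in the young, aged and WT DP libraries. Bcl2l1 had 6.68%, 4.10% and 5.92% in the DN groups and 25.5%, 24.4% and 24.1% in those DP groups. On the log2 scale the per-length ratio of Bcl2l1 to Bcl2 was -0.85 ± 0.11, -1.63 ± 0.74 and -0.62 ± 0.21 in DN and 4.24 ± 0.31, 4.21 ± 0.20 and 4.50 ± 0.11 in DP cells, so Bcl2 was the more abundant of the pair in DN and Bcl2l1 in DP cells. Mcl1 kept the largest share throughout, with group means from 73.2% to 84.9%.

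**Figure D2:**
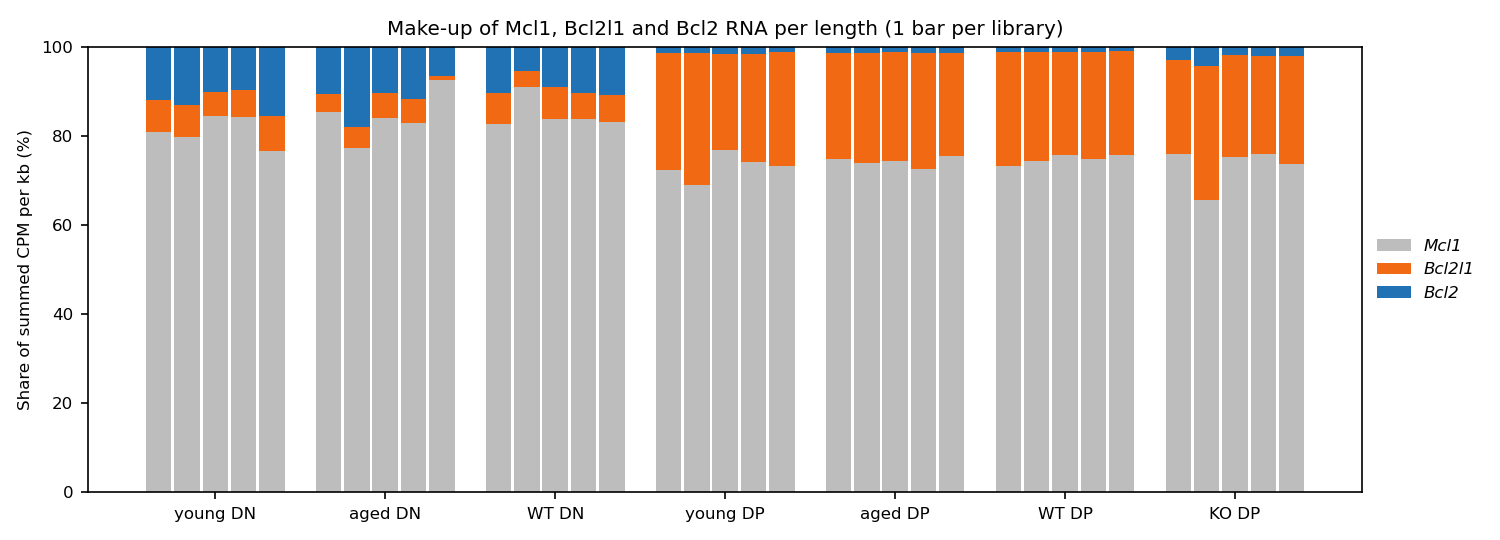
Share of Mcl1, Bcl2l1 and Bcl2 (y axis, percent of their summed CPM per kilobase) in each of the 35 libraries, 1 bar per library, grouped by population. Mcl1 filled most of every bar, Bcl2l1 had group means of 24.1% to 25.5% in the 4 DP groups and 4.10% to 6.68% in the DN groups, and Bcl2 had group means of 9.17% to 12.1% in DN groups and 1.07% to 2.59% in DP groups.

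The effectors differed from each other. Bax was lower in DP cells: 51.8 ± 4.31 against 35.4 ± 4.15 CPM in young mice (log2 change -0.53, SE 0.09, adjusted p = 0.000106), 51.3 ± 7.51 against 34.2 ± 6.43 CPM in aged mice (-0.59, adjusted p = 0.0121) and 85.1 ± 22.6 against 42.1 ± 8.30 CPM in WT mice (-0.997, SE 0.17, adjusted p = 0.000206). Bak1 was nearly level, with group means from 59.2 to 75.5 CPM over all 7 groups, and log2 changes between stages of 0.13, 0.23 and -0.02 (adjusted p = 0.112, 0.115 and 0.873). With all 35 libraries in the fit the aged value passed (adjusted p = 0.0244).

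Among the BH3-only genes, Bbc3, a target of p53, FOXO and glucocorticoid signals, was higher in every DP library than in any DN library. Young DN libraries had 8.34, 6.86, 7.05, 6.19 and 6.68 CPM, and young DP libraries 34.9, 31.7, 32.6, 28.6 and 29.6 CPM. Aged DN libraries had 16.8, 14.7, 9.17, 9.88 and 7.48 CPM, and aged DP libraries 34.1, 29, 33.4, 27 and 21.1 CPM. WT DN libraries had 11.5, 10.1, 10.4, 9.29 and 13.4 CPM, and WT DP libraries 25.6, 30.6, 26.4, 33.8 and 28.9 CPM. The stages did not overlap, and DN levels in aged and WT mice reached above those of young mice. The log2 change was 2.18 (SE 0.10, adjusted p = 1.10e-10) in young, 1.31 (SE 0.24, adjusted p = 0.00185) in aged and 1.43 (SE 0.13, adjusted p = 8.58e-07) in WT mice.

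Bmf, whose protein is tethered to the cytoskeleton until released, had 62.8, 69.7, 57.6, 51.5 and 56.3 CPM in young DN and 126, 110.5, 236, 171 and 187 CPM in young DP libraries. Aged DN libraries had 26.1, 90.9, 27.8, 38.3 and 31.4 CPM, and aged DP libraries 91.5, 171, 98.2, 119 and 101 CPM. The stages did not overlap in either set, although aged DN library 2 came close to the lowest aged DP library. The log2 change was 1.501 (SE 0.17) in young, 1.43 (SE 0.36) in aged and 1.34 (SE 0.14) in WT mice, with adjusted p of 1.14e-06, 0.00907 and 2.41e-06.

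Bcl2l11 was higher in DP cells by smaller amounts: log2 changes of 0.60, 0.46 and 0.53 (adjusted p = 1.22e-05, 0.0336 and 0.0041), with young DN libraries between 87.3 and 90.6 CPM and young DP libraries between 116 and 164 CPM. The aged call was lost when any 1 of 7 of the 10 libraries was left out, with an adjusted p of up to 0.0754. Bid, which caspase-8 cleaves into its active form, was lower in DP cells in young mice (log2 change -0.60, adjusted p = 9.24e-06) and WT mice (-0.70, adjusted p = 0.000268). Its aged value was -0.28 (adjusted p = 0.222), and -0.42 (adjusted p = 0.00474) without aged DN library 1, which at 28.9 CPM was the lowest of its group. Pmaip1, another p53 target, reached at most 17.9 CPM in a library, and its young decrease of 0.77 on the log2 scale (adjusted p = 0.0461) was lost without any 1 of 6 of the 10 libraries, with an adjusted p of up to 0.171 without young DN library 3, where it was highest in its group.

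In all, 6 of the 10 members were called in the same direction in all 3 sets, namely Bcl2l1, Bbc3, Bmf and Bcl2l11 higher and Bcl2 and Bax lower. Of 12976 genes tested in all 3 sets, 36% were called in the same direction in all 3. Bcl2, Bcl2l1, Bbc3 and Bmf, 4 of 10, had no overlap between stages in any of the sets, against 24.3% of those genes. The share of all genes with no overlap was 57.3% in young, 33.8% in aged and 49.5% in WT mice, against 8, 4 and 6 members. Without the libraries that stand apart, aged mice had 8 members called, against 61.1% of 13885 genes, and WT mice 8, against 67.2% of 13699 genes.

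**Figure D3:**
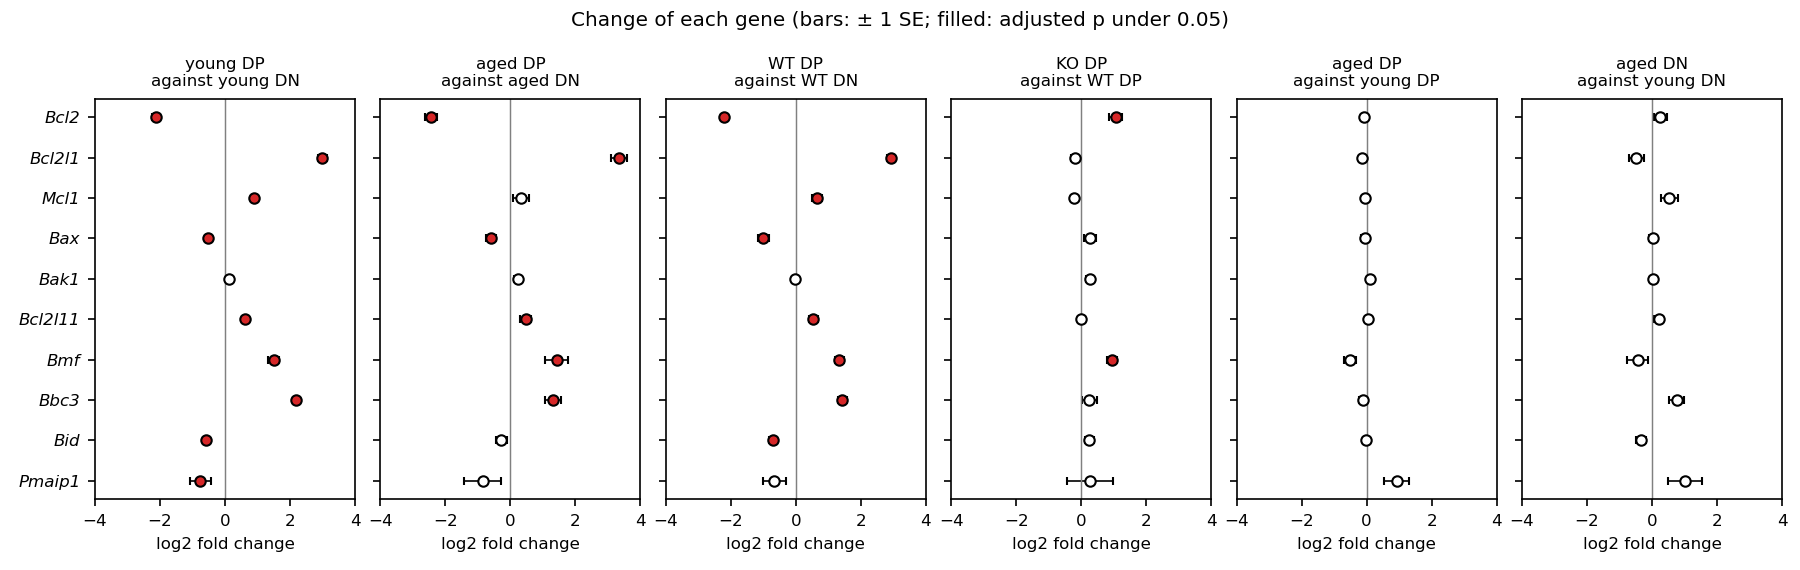
Log2 change of each member (x axis) in 6 comparisons, 1 panel each, with bars of ± 1 SE; filled points passed an adjusted p of 0.05. The 3 stage panels have Bcl2l1 at 2.91 to 3.34 and Bcl2 at -2.46 to -2.12, the KO panel has Bcl2 and Bmf filled, and the 2 age panels have no filled point.

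The second question was what the Mettl3flox/flox genotype changes in DP cells. Bcl2 was 2.08-fold and Bmf 1.94-fold higher in KO DP cells and no other member passed the test. These are an anti-apoptotic and a BH3-only gene, and both were higher. Of the 10 members 2 were called, against 1.59% of 13233 genes (1.48% higher, 0.113% lower). With no overlap between groups there were 2, against 5.21% of all genes. The members were chosen with earlier results of these data known, so these counts are no independent result about the family. With a block on replicate number 0 members were called (adjusted p = 0.0752 for Bcl2 and 0.0595 for Bmf, edgeR's quasi-likelihood test). KO and WT libraries came from mice of different genotypes, and the labels do not say what a shared number stands for. Deviations of same-numbered libraries correlated at -0.238 to 0.175, and 1 of 5 matched its own number best.

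Bcl2 was at 62.3, 72.6, 38.2, 39.8 and 38.6 CPM in KO DP libraries, against 23.5, 23.5, 23.6, 29.4 and 21.6 CPM in WT DP libraries. All 5 KO libraries lay above all WT libraries, and KO libraries 1 and 2 were well above the other KO libraries. The difference (log2 change 1.06, SE 0.20, adjusted p = 0.0144, edgeR's quasi-likelihood test) was 0.88 on the log2 scale (adjusted p = 0.00255) without KO DP library 2. It lost the call without WT DP library 3 (adjusted p = 0.0549) or WT DP library 5 (adjusted p = 0.0598). The 5 KO values lay above all young, aged and WT DP values and below all DN values, so KO DP cells had a Bcl2 level between the control DP and the DN groups. Its share of anti-apoptotic RNA was 1.77% to 4.29% in KO against 0.94% to 1.12% in WT DP libraries, and the log2 ratio of Bcl2l1 to Bcl2 was 2.81 to 3.70 against 4.36 to 4.63.

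Bmf was at 255, 235, 144, 217 and 261 CPM in KO DP libraries, against 114, 126, 125, 95.5 and 112 CPM in WT DP libraries. The groups did not overlap, KO library 3 was the lowest of its group, and the KO values overlapped those of young DP libraries. The difference (log2 change 0.96, SE 0.15) had an adjusted p of 0.00611, and of 0.000954 to 0.0296 with any 1 library left out.

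The other anti-apoptotic genes were at or below the WT level without passing the test. Bcl2l1 had 238 ± 16.6 CPM in KO against 276 ± 27.7 CPM in WT DP (log2 change -0.21, adjusted p = 0.351), and Mcl1 549 ± 81.3 against 638 ± 63.7 CPM (-0.21, adjusted p = 0.419). Bak1 was at 75.5 ± 5.89 against 63.1 ± 5.46 CPM, with an unadjusted p of 0.0236 and an adjusted p of 0.268. Bcl2l11 had a log2 change of 0.00 (adjusted p = 0.997). Bbc3 was at 60.6 CPM in KO DP library 2 and at 25.5 to 31.1 CPM in the other KO libraries, and its log2 change was 0.25 with that library and -0.07 without it. Bax (0.28), Bid (0.25) and Pmaip1 (0.28) did not pass either, and Pmaip1 had 0 counts in KO DP library 2, where 3 counts would be 0.228 CPM.

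Markers of other cells moved with genotype. Summed B cell markers were 941 to 1129 CPM in KO against 599 to 750 CPM in WT DP libraries, and 9 of 10 tested B cell markers passed as higher. Dendritic cell markers were at 282 to 617 against 30.6 to 69.1 CPM (4 of 5 tested higher), DN markers at 99.3 to 236 against 59.3 to 89.6 CPM (3 of 8 higher) and single positive markers at 404 to 568 against 282 to 329 CPM (5 of 8 higher). DP markers summed to 9651 to 13551 CPM in KO and 14002 to 16123 CPM in WT libraries, with 0 of 8 called. Among them, Rag1 had medians of 3807 CPM in KO and 6227 CPM in WT, and Cd8b1 of 1539 and 1622 CPM. Granulocyte markers were at 14.1 to 46.4 against 1.42 to 8.74 CPM (3 of 4 tested higher). Macrophage markers were at 19.7 to 65.4 against 6.03 to 8.28 CPM (3 of 5 higher). Gamma delta and innate-like T cell markers were at 12.3 to 22.7 against 3.05 to 6.10 CPM (2 of 4 higher). Of NK cell and plasma cell markers, 2 of 5 and 1 of 5 were higher, and 0 stroma or erythroid markers were called. The part of these cells in the Bcl2 and Bmf differences was not tested.

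**Figure D4:**
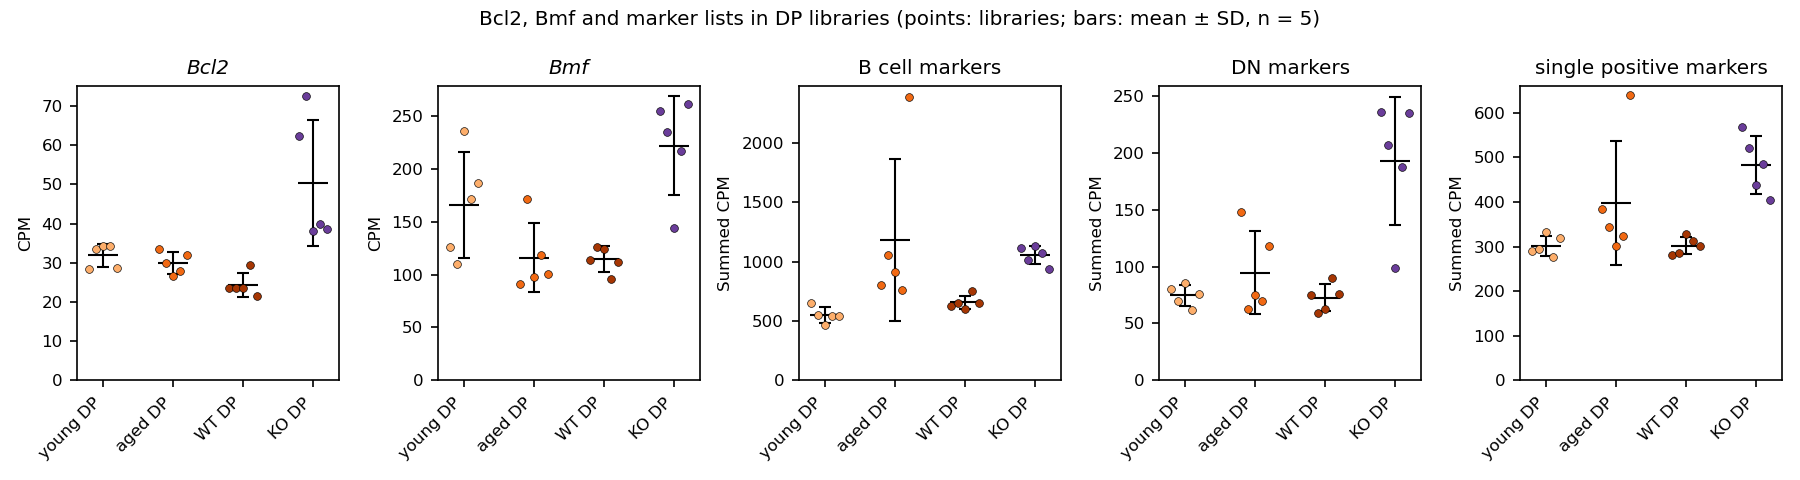
Levels of Bcl2 and Bmf (first panels, TMM-scaled CPM) beside the summed CPM of B cell, DN and single positive markers in young, aged, WT and KO DP libraries; points are libraries and bars mean ± SD, n = 5. KO libraries lay above WT libraries in all 5 panels, with Bcl2 at 38.2 to 72.6 against 21.6 to 29.4 CPM and summed B cell markers at 941 to 1129 against 599 to 750 CPM.

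The third question was age. No member passed the test between aged and young cells at either stage: 0 of 10 in DP, against 0.942% of 13059 genes, and 0 of 10 in DN, against 0.267% of 13873 genes (edgeR's quasi-likelihood test). No member had groups without overlap either, against 3.05% of genes in DP and 9.35% in DN; by direction, 0.62% of genes were higher and 0.322% lower in aged DP, and 0.159% and 0.108% in aged DN. At an unadjusted p under 0.05 there were 2 members in DP, against 11.8% of genes, and 1 in DN, against 22% of genes. DESeq2 called 0 members in DP, against 1.84% of genes with an adjusted p, and 1 in DN, against 5.54%. In DP cells Bmf averaged 116 ± 32.5 CPM with age, beside 166 ± 50.2 CPM in young mice (log2 difference -0.51, SE 0.19, adjusted p = 0.277), and Pmaip1 had a log2 difference of 0.93 (adjusted p = 0.33). Bcl2 (-0.08), Bcl2l1 (-0.14) and Mcl1 (-0.04) were close to 0. Among tested markers, 5 of 5 dendritic cell, 4 of 9 B cell and 2 of 6 plasma cell markers were called higher in aged DP. So were 1 of 3 macrophage and 1 of 4 gamma delta and innate-like T cell markers. Called lower were 2 of 8 DP and 1 of 5 DN markers. Their part in the members' values was not tested.

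In DN cells Bbc3 averaged 11.6 ± 3.94 CPM with age, beside 7.03 ± 0.80 CPM in young mice, a log2 difference of 0.76 (SE 0.23, adjusted p = 0.149). The value passed with DESeq2 (adjusted p = 0.0449), with all 35 libraries in the fit (adjusted p = 0.0178) and without the libraries that stand apart (0.69, adjusted p = 0.0481). Bcl2l1 had a log2 difference of -0.48 (adjusted p = 0.247) and passed in the fit of all 35 libraries (-0.51, adjusted p = 0.03). Bmf passed as lower without aged DN library 2 (-0.90, adjusted p = 0.0453). Mcl1 (0.54, adjusted p = 0.247) and Bcl2 (0.26, adjusted p = 0.408) did not pass. No marker of any cell type list passed the test in DN cells. Summed NK cell markers were 85.2 to 229 CPM in aged against 35.9 to 64.3 CPM in young DN libraries. Dendritic cell markers were 728 to 17038 against 166 to 722 CPM, and single positive markers 876 to 4050 against 521 to 735 CPM. Plasma cell markers were 257 to 843 against 175 to 220 CPM. Sums overlapped for B cell markers (718 to 14866 against 411 to 894 CPM) and macrophage markers (24.3 to 217 against 17.0 to 108 CPM). Gamma delta and innate-like T cell markers were 429 to 7921 against 291 to 339 CPM, and granulocyte markers 5.66 to 73.7 against 256 to 979.6 CPM. The part of these cells in the members' values was not tested. The difference in the age effect between stages was called for 0 of 10 members, against 0.00679% of 14722 genes, and was -0.87 on the log2 scale for Bbc3 (unadjusted p = 0.00324, adjusted p = 0.272) and -0.56 for Mcl1 (unadjusted p = 0.0487, adjusted p = 0.328). With DESeq2 that comparison called 84 genes, against 1.

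The 2 control sets of 10 weeks, wild type and Mettl3flox/wt; Cd4Cre, were compared to see how far controls differ. In DP cells 0 of 10 members passed, against 0.589% of 13083 genes, 0 had groups without overlap, against 4.16%, and there were 3 at an unadjusted p under 0.05, against 15.7%. These were Bcl2 (log2 difference of WT from young -0.40, adjusted p = 0.103), Bmf (-0.54, adjusted p = 0.142) and Bcl2l11 (-0.23, adjusted p = 0.291). DESeq2, which called 3.13% of genes, called Bcl2 (adjusted p = 0.0199) and Bmf (adjusted p = 0.038), and Bmf also passed with no filter on low counts (adjusted p = 0.0455). WT DP cells thus had the lowest mean Bcl2 of the DP groups, and the WT libraries are the ones the KO libraries were compared with.

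In DN cells 3 of 10 members passed, 2 higher and 1 lower in WT, against 25.1% of 13702 genes (14.2% higher, 10.9% lower). Markers of other cells also differed: 5 of 7 NK cell markers were higher in WT, with sums of 102 to 124 CPM against 35.9 to 64.3 CPM, as were 2 of 8 single positive, 2 of 6 plasma cell and 1 of 10 B cell markers, and 2 of 8 DP, 1 of 8 DN and 1 of 7 gamma delta and innate-like T cell markers were lower. Their part in the members' differences was not tested. WT DN libraries had a count in 16170 to 17956 genes, against 19054 to 19677 in young DN libraries. Total counts were 15849190 to 18820157 in WT DN and 13284265 to 15579237 in young DN libraries. The part of this in the members' differences was not tested either. Bax was at 71.4, 125, 75.9, 79.5 and 73.6 CPM in WT DN and 48.9, 48.9, 59, 52.9 and 49.5 CPM in young DN libraries. All WT libraries lay above all young libraries, and WT DN library 2, with the high B cell markers, was the highest; the log2 difference was 0.68 (SE 0.15, adjusted p = 0.01), and 0.51 (adjusted p = 0.000167) without that library. Bbc3 was higher by 0.61 (SE 0.14, adjusted p = 0.0112) with no overlap, and Bmf lower by -0.40 (SE 0.13, adjusted p = 0.0459), a call lost without any 1 of 8 of the 10 libraries (adjusted p up to 0.132, without young DN library 2). Bcl2 passed as lower without young DN library 4 (-0.42, adjusted p = 0.0413). Groups without overlap made up 24.7% of all genes. The stage difference of Bbc3 was smaller in WT than in young mice (interaction -0.75 on the log2 scale, SE 0.16, adjusted p = 0.0266), the 1 member called there against 0.682% of 14655 genes. That call was lost without any 1 of 7 of the 20 libraries, at an adjusted p of 0.0535 to 0.0721, and with no filter on low counts (adjusted p = 0.06) or with all 35 libraries in the fit (adjusted p = 0.531).

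The rest of the pathway was read from 3 lists: 15 other BCL2 family genes, of which 7 to 9 were tested, 13 genes of mitochondrial execution, and 21 upstream regulators, of which 20 were tested. Between stages, execution genes were called higher and lower in DP cells as 3 and 8 in young, 1 and 2 in aged, and 2 and 7 in WT mice. Apaf1, the apoptosome scaffold, was higher in all 3 (log2 change 0.42, 0.60 and 0.66). Endog, a mitochondrial nuclease, was lower in all 3 (-2.57, -1.97 and -2.32). The list medians were -0.37, -0.24 and -0.57, beside -0.01, -0.07 and -0.02 for all genes.

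Other family members were called as 2 higher and 2 lower in young, 2 and 2 in aged, and 2 and 3 in WT mice. Bnip3l, a mitophagy receptor, was higher by 0.62, 0.43 and 0.52, and the anti-apoptotic Bcl2l2 was lower by -1.17, -1.03 and -0.84. Bcl2l14 was lower by -4.06, -4.18 and -4.56, with DP means of 0.67, 0.326 and 0.44 CPM. Upstream regulators were called as 12 higher and 6 lower in young, 9 and 4 in aged, and 12 and 4 in WT mice. Il7r, the IL-7 receptor chain, was at 6.997 against 147 CPM in young mice (log2 change -4.37, adjusted p = 1.41e-11). Stat5b, which acts below that receptor, was higher in DP cells by 0.95, 1.20 and 1.10, and Trp53 lower by -0.83, -0.68 and -1.01. Il7r is also on the DN marker list.

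In the KO, age, WT DP against young DP and interaction comparisons, 0 genes of these 3 lists were called. In WT DN against young DN, execution genes were called as 4 higher and 1 lower, other family genes as 1 higher, and regulators as 4 lower. Among them Vdac2, which holds BAK at the mitochondrion, was higher by 0.36 (adjusted p = 0.00576) and Xiap, an inhibitor of caspases, lower by -0.46 (adjusted p = 0.0395). Foxo3, a transcription factor whose targets include Bcl2l11 and Bbc3, was lower by -0.55 (adjusted p = 0.00678), and Huwe1, a ligase that marks MCL1 for degradation, by -0.72 (adjusted p = 0.0275).

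The genes with the most similar profile to each member were found among 10007 genes by Pearson correlation of log2 CPM over the 35 libraries, which share the contrast of stages, so the values are a description with no test. They were Coro2a (r = 0.966) and Pik3cd (0.951) for Bcl2, and Rmnd5a (0.993) and Rcbtb2 (0.991) for Bcl2l1. For Mcl1 they were Ccdc71l (0.928) and Il4ra (0.927), and for Bbc3 Sit1 (0.965) and Aes (0.96). Bmf was closest to Zfyve28 (0.925) and Rcsd1 (0.92), Bcl2l11 to Spata13 (0.875), and Bax to Arpc1b (0.931) and Psme2 (0.915). Bid was closest to Pgls (0.913) and Rpa2 (0.91), and Pmaip1 to Usp6nl (0.841) and Myo7a (0.836). Bak1 had the weakest likeness of the 10, at 0.693 for Scamp3 and 0.692 for Cdpf1.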

How the data were processed

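Gene-level read counts were deposited by the authors as 1 table of whole-number counts for 41096 genes and 35 libraries, with gene identifiers of the C57BL/6NJ strain annotation and gene lengths per the file headers. Among the tools in the submitters' processing notes are STAR 2.5.1 (alignment), HTSeq 2.0.3 and Subread (both able to count), and Trim Galore 0.4; GRCm39 and mm10 both appear there as builds, with no roles stated, so what made the counts is not known; whether strand was used is not given in the sources used here. Reads shared with copies could be lost or split, and a second gene described as Mcl1 never exceeded 0.598 CPM. A column of gene lengths was used for CPM per kilobase.

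Counts were tested with edgeR 4.0.16 in R 4.3.3 (TMM, filterByExpr with a minimum count of 10 and total of 15, quasi-likelihood test, 2-sided, Benjamini-Hochberg adjusted over all genes tested, called under 0.05). Each comparison was fitted with its own groups, and the 10 members passed the filter in all of them. The fit was tested on simulated data. Alternatives were RLE normalization, no filter, DESeq2 1.42.0, a replicate block, a fit over all 35 libraries, leaving out each library, and leaving out aged DN 1 and 5, aged DP 1 and 5, WT DN 2 and KO DP 2. The labels do not say whether replicate numbers pair DN and DP libraries. In aged DP against aged DN, deviations of same-numbered libraries correlated at 0.133 to 0.288, and 5 of 5 matched their own number best. The block changed 0 of 10 member calls there. For the pathway lists, up to 2 genes called higher and 2 called lower per comparison were selected by smallest adjusted p, and examples in the text come from these. For each member up to 2 best-correlated genes are given, out of those averaging 5 CPM or more in some group, with a prior count of 2 on the log2 scale. A few genes that these rules select are not reported here. The members, lists and left-out libraries were chosen with earlier results of these data known. Promoter sequences are RefSeq's and were taken by symbol for 9 members. Entries on chromosome 18, where Pmaip1 lies, were not used. The floor of 3 counts covers counting error only, whereas SD and SE include the spread between libraries.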

Additional observations from a re-analysis of the deposited data

Results flagged for a closer look

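In 11 of 70 sets of 5 libraries (10 genes in 7 groups) 1 library lay far from the others by Dixon's criterion; chance gives about 1 in 20. Aged DN library 5 had Mcl1 at 906 CPM (next 457) and Bcl2l1 at 12.4 CPM (next 28.9). WT DN library 2 had Mcl1 at 593 CPM (next 397), Bax at 125 CPM (next 79.5) and Pmaip1 at 8.04 CPM (next 3.91). Both libraries had the highest summed B cell markers of their groups. Young DN library 3 had Mcl1 at 405 CPM (next 352) and Pmaip1 at 6.8 CPM (next 3.64). WT DP library 4 had Bcl2 at 29.4 CPM (next 23.6) and Bid at 58.8 CPM (next 43.2). Bbc3 was at 60.6 CPM in KO DP library 2 (next 31.1), and Bmf at 90.9 CPM in aged DN library 2 (next 38.3). The stage difference of Bbc3 differed between WT and young mice, with an interaction of -0.75 on the log2 scale (adjusted p = 0.0266, edgeR's quasi-likelihood test).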

How the results depend on the processing

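Of 1780 values of members under an alternative, 1726 kept their side of the threshold, 40 lost the call, 14 gained it and 0 called values reversed. Among the 1726, 63 that were not called either way changed sign. Counts of genes called moved as follows, with members in the same order where they moved. Without the filter they were 353 (from 123) for aged against young DP, 149 (from 77) with 1 member (from 0) for WT against young DP, and 0 members (from 1) for genotype by stage. DESeq2 gave 605 for KO (from 211), 318 for aged DP, 928 with 1 member for aged DN (from 37 and 0), 392 with 2 members for WT against young DP, 84 for age by stage (from 1) and 340 for genotype by stage (from 100). The replicate block gave 61 with 0 members for KO (from 2), 1 for aged DN, 8 for WT against young DP, 10 for age by stage and 15 with 0 members for genotype by stage. Outside aged DP against aged DN it is not known whether a shared number pairs libraries. Correlations of same-numbered libraries were -0.238 to 0.175 for KO, 0.0242 to 0.137 for young and -0.129 to 0.199 for WT DP against DN. In the comparisons outside aged DP against aged DN, 0 to 3 of 5 libraries matched their own number best. Bcl2 and Bmf in KO had adjusted p of 0.0752 and 0.0595 under that block. Without the 6 libraries set aside (aged DN 1 and 5, aged DP 1 and 5, WT DN 2 and KO DP 2) the counts were 534 for KO, 738 with 1 member for aged DN and 72 for age by stage. The fit of all 35 gave 30 for aged DP, 2160 with 2 members for aged DN, 4 for WT against young DP, 1752 for WT against young DN (from 3439), 21 for age by stage and 25 with 0 members for genotype by stage. Leaving out 1 library gave 101 to 534 genes and 1 to 2 members for KO, 58 to 136 for aged DP, 10 to 185 with 0 to 1 members for aged DN, 23 to 98 for WT against young DP, 2102 to 4392 for WT against young DN, 1 to 7 for age by stage, and 47 to 402 with 0 to 1 members for genotype by stage. The cause was not tested. Young DP against young DN and WT against young DP held none of the 6 libraries set aside, so no such alternative was run for them. Pmaip1 had 0 to 211 counts per library, which limits the precision of its values.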
